A study of Mus musculus with 6 samples.

Results

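The kinase mTOR works in a pair of protein complexes that set cell growth to nutrients and growth factors. The first, mTORC1, is built on the scaffold RAPTOR and drives protein synthesis while restraining autophagy. The second, mTORC2, is built on RICTOR and phosphorylates kinases such as AKT. Amino acids bring mTORC1 to the lysosome through the RAG GTPases, which folliculin helps to switch on, and there the small GTPase RHEB activates it. The TSC1-TSC2 complex holds RHEB inactive until growth factor signals release it. In lymphocytes, mTORC1 activity supports blast growth and cytokine production.

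Expression was examined for 10 genes of this system, chosen by name among the 25865 genes of the table, and all 10 were found. They are Mtor, Rptor (RAPTOR), Rictor and Deptor of the complexes, Tsc1, Tsc2 and Rheb of the growth factor branch, and Rragc, Rragd and Flcn (folliculin) of the amino acid branch. The cells were ILC2s (group 2 innate lymphoid cells, which make type 2 cytokines) sorted from the large intestine of C57BL/6 mice, with age and sex not stated in the labels. Before treatment they had been kept for 5 days in medium with IL-33, IL-25, IL-7 and IL-2, each cytokine at 10 ng/mL. The Control group (3 samples) received vehicle and the toyocamycin group (3 samples) received toyocamycin for 16 h, at a dose the labels do not state. The compound is an analogue of adenosine that blocks ribosomal RNA processing and the RNase of the stress sensor IRE1. The comparison asks how transcripts of the mTOR system differed between treated and vehicle cells. The labels do not say whether replicates came from separate animals or cultures, so each p-value covers the spread among these 6 samples, and that spread may be technical.

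Each sample held 22.3 M to 36.7 M reads assigned to genes. Values are normalised read counts, that is reads per gene divided by 1 factor per sample, and adjusted p-values come from limma over 16223 tested genes. All 8 ILC2 markers were above the floor of 3 reads, and their summed level was 364618 to 373482 in Control and 284752 to 310445 with toyocamycin. The markers went opposite ways, with Rora 13.1-fold and Gata3 2.02-fold higher, and Il13 6.95-fold, Il7r 2.98-fold and Klrg1 2.41-fold lower. The 4 markers of NK cells and ILC1s were at or below the floor in both groups. Summed T cell markers (6 genes, Cd8a and Cd8b1 at or below the floor) were 190 to 217 and 194 to 240. Within that sum Cd3g was higher (149 to 199, group means), Cd3e lower (35.2 to 6.13) and Cd3d lower (6.47 to 0.88). Summed macrophage and dendritic cell markers (5 genes, Adgre1 and Flt3 at or below the floor) were 469 to 846 and 385 to 860. The sum over 4 B cell markers was 360 to 464 in Control and 182 to 210 with toyocamycin, over 3 ILC3 markers 103 to 131 and 34.3 to 60.7, and over 5 fibroblast and endothelial markers 1255 to 1404 and 699 to 884. Over 3 mast cell markers the sums were 5.27 to 13.2 and 0 to 2.64, with Fcer1a at 0 throughout, and over 4 epithelial markers 132 to 174 and 157 to 162, with Krt20 at 0 throughout. The part of these other markers in the results below was not tested.

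Of the 10 genes, 7 were higher and 2 were lower with toyocamycin at an adjusted p under 0.05, and Deptor did not pass. Of all genes tested, 65.9% were called, 32.8% higher and 33.1% lower. The samples of the groups did not overlap in 9 of the 10 genes, where 69.1% of all genes did not overlap. The median log2 change was 0.66 over the 10 genes and −0.03 over all genes tested. Among the calls, 2 higher genes (Rictor and Rheb) and 1 lower gene (Tsc2) changed at least 2-fold, against 17.0% and 20.5% of all genes. On the recovered reads, edgeR also called 7 higher and 2 lower, where it called 38.5% of all genes higher and 41.2% lower. In these bulk samples, fewer cells of a kind and less RNA per cell cannot be told apart.

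**Figure D1:**
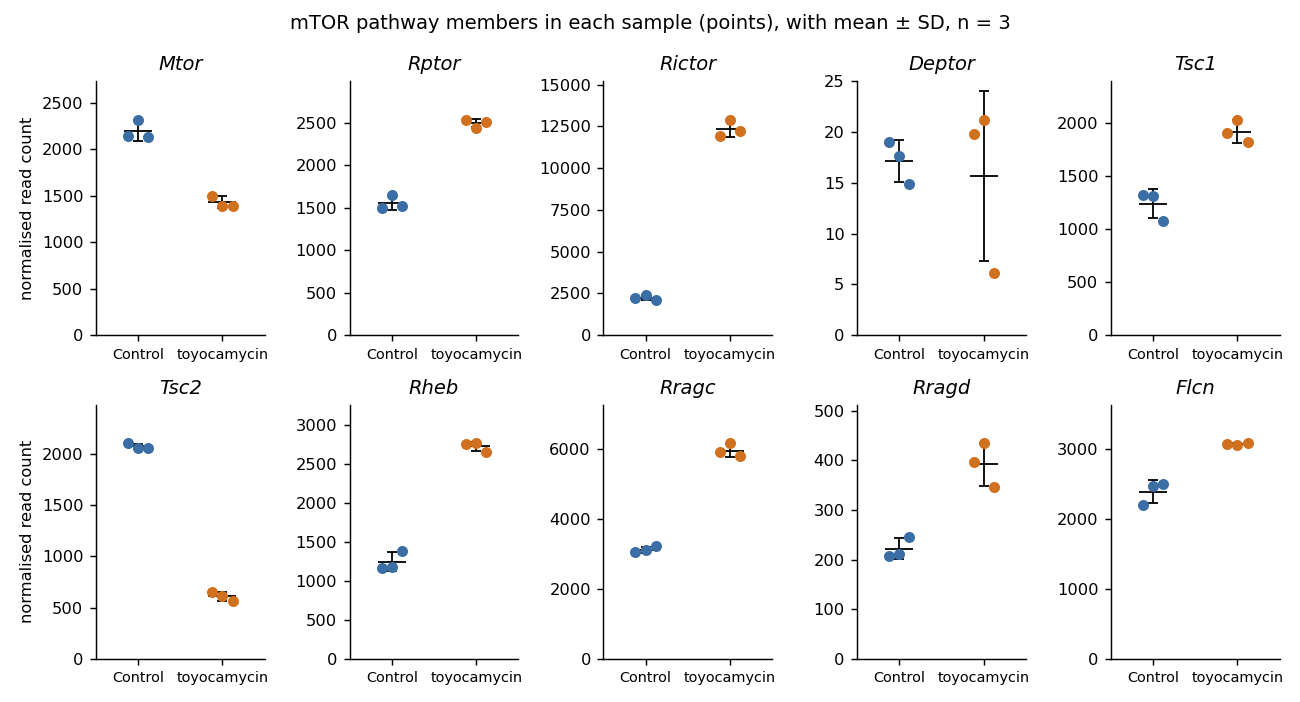
Normalised read count (vertical axes, each from 0) of the 10 genes in the 3 Control and 3 toyocamycin samples. Points are samples and bars are mean ± SD, and the groups overlap only in Deptor.

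Among the subunits of the mTOR complexes, the kinase gene fell, the mTORC1 scaffold gene rose, and the mTORC2 scaffold gene had the largest rise of the 10. Rictor (chromosome 15, 6708379 to 6800401, mm10) was at 2223, 2392 and 2108 in Control and 11950, 12893 and 12214 with toyocamycin. Every treated sample was thus far above every Control sample, and the mean rose 5.51-fold, from 2241 ± 143 to 12350 ± 486 (adjusted p = 1.09e-18, log2 change 2.46, SE 0.056). Of all genes tested, 97.7% had a lower log2 change. Rptor (chromosome 11, 119602905 to 119899576) was at 1492, 1654 and 1521 in Control and 2537, 2445 and 2512 with toyocamycin. Its mean rose 1.61-fold with no overlap (log2 change 0.68, SE 0.061, adjusted p = 2.31e-09). Rptoros, an antisense transcript that shares 84 exonic bases with Rptor, was at 0.906, 2.63 and 0 in Control and 10.6, 14.4 and 19.4 with toyocamycin, a level too low to move the Rptor count much.

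Mtor itself (chromosome 4, 148448611 to 148557683), which encodes the kinase shared by both complexes, was at 2142, 2320 and 2130 in Control. With toyocamycin it was at 1504, 1388 and 1396, below every Control sample. Its mean fell 1.54-fold, from 2198 ± 107 to 1430 ± 64.8 (adjusted p = 2.03e-08, log2 change −0.62, SE 0.064). Deptor (chromosome 15, 55112317 to 55259271), which encodes an inhibitory subunit, was barely expressed, at 19, 17.6 and 14.9 in Control and 19.8, 21.2 and 6.07 with toyocamycin. Treated replicates 1 and 2 were above every Control sample and replicate 3 was far below. The 95% interval of its log2 change (−0.29) was therefore wide, from −1.36 to 0.79 (adjusted p = 0.653), and the sign turned without toyocamycin replicate 3 (0.25).

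The ratio of 2 genes within a sample does not depend on a factor applied to the whole sample. Quantile normalization and a correction for GC content and length shift the genes of a sample by unequal amounts. The ratios were not computed with them. Rptor reads were 0.671, 0.691 and 0.721 times Rictor reads in Control and 0.212, 0.19 and 0.206 times with toyocamycin. The ratio shifted by −1.78 on the log2 scale, many times its SD of 0.05 in Control and 0.08 with toyocamycin. The exact permutation test, two-sided, gave p = 0.1, the smallest that 3 against 3 samples allow, and 0.15 adjusted over the 3 ratios examined. This size of sample cannot bring the test below its threshold. With quantile normalization the log2 change was 0.41 for Rptor and 2.05 for Rictor, and after the GC and length correction 0.95 and 1.99.

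The remaining subunits and assembly factors of the complexes were measured as a list of 8 genes. Of these 5 were lower, none was higher and 3 did not pass (median −0.83), where 33.1% of all genes were lower and 32.8% higher. Equal totals made all 8 lower (median −1.18), where 42.5% of all genes were lower (median −0.36). Quantile normalization gave 2 higher and 5 lower, where it called 5359 of 16223 genes higher and 5163 lower. Mapkap1, which encodes the mTORC2 subunit SIN1, fell 2.77-fold from 1225 ± 55.4 to 443 ± 31.7 (adjusted p = 1.5e-12), while its partner Rictor rose. Mlst8, a subunit of both complexes, fell 1.87-fold from 389 ± 29 to 208 ± 53, and Prr5l, which binds mTORC2, fell 2.21-fold from 296 ± 54.5 to 134 ± 24.1. Tti1, a cochaperone in the folding of mTOR and related kinases, fell 2.92-fold from 1356 ± 61.8 to 464 ± 26.9. Akt1s1, which encodes the mTORC1 inhibitor PRAS40, was at 715 ± 36.8 and 799 ± 57.6 and did not pass (log2 change 0.16, adjusted p = 0.107), but its call depended on the processing. It was called lower with equal totals (−0.19, adjusted p = 0.0402), and higher with quantile normalization (0.28, adjusted p = 0.00668), without toyocamycin replicate 1 (0.22) and after a GC and length correction (0.57, adjusted p = 6.87e-06).

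In the growth factor branch, the genes for the partners of the TSC complex moved apart. Tsc2 (chromosome 17, 24595816 to 24632630), which encodes the subunit that inactivates RHEB, was at 2103, 2062 and 2061 in Control and 655, 609 and 567 with toyocamycin. All treated samples were far below Control, and the mean fell 3.4-fold, from 2075 ± 24.2 to 610 ± 44 (adjusted p = 5.35e-15, log2 change −1.77, SE 0.073). Tsc1 (chromosome 2, 28641228 to 28691167), which encodes the subunit that stabilises TSC2, was at 1325, 1316 and 1079 in Control and 1907, 2032 and 1825 with toyocamycin. It rose 1.55-fold without overlap (log2 change 0.64, SE 0.078, adjusted p = 2.73e-07). Tsc1 reads were 0.63, 0.639 and 0.523 times Tsc2 reads in Control and 2.91, 3.34 and 3.22 times with toyocamycin, so the order of the read counts turned over in all 3 treated samples. That is a shift of 2.40 on the log2 scale (exact permutation p = 0.1, two-sided, adjusted p = 0.15). Tbc1d7, the gene of the third TSC subunit, was at 210 ± 34 and 247 ± 23.9 and did not pass (log2 change 0.25, adjusted p = 0.166). Equal totals gave −0.10 (adjusted p = 0.581), and the gene was called higher with quantile normalization (0.73, adjusted p = 7.38e-04).

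Tsc2 shares 693 exonic bases, 7.2% of its merged exon length, with Pkd1 on the opposite strand, and no source used here states whether counting used the strand. Pkd1 was at 2072 ± 136 in Control and 2175 ± 83.3 with toyocamycin (log2 change 0.07, adjusted p = 0.338), with the groups overlapping. Rheb (chromosome 5, 24802823 to 24842624), the target of the TSC complex and activator of mTORC1, was at 1170, 1184 and 1383 in Control and 2753, 2762 and 2658 with toyocamycin. It rose 2.19-fold, with the treated samples close together (log2 change 1.13, SE 0.069, adjusted p = 3.47e-12).

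**Figure D2:**
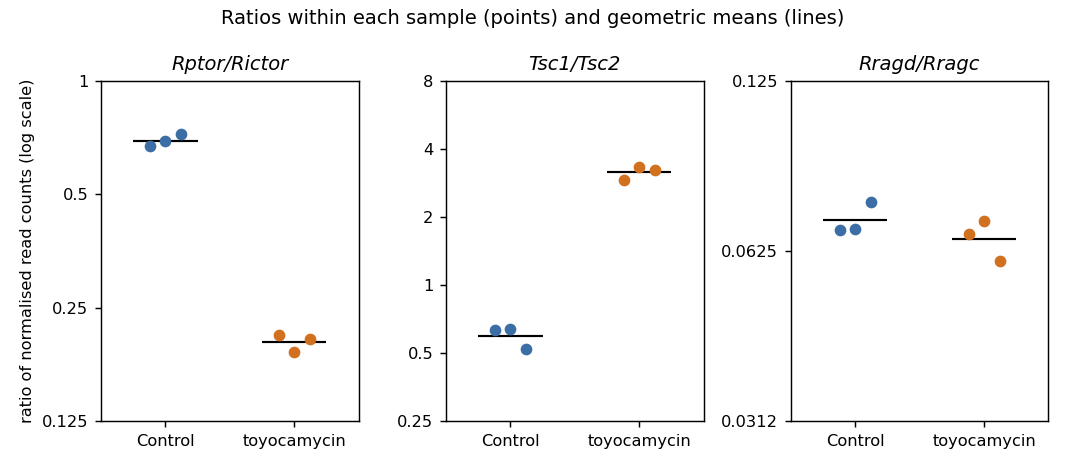
Ratio of normalised read counts within each sample for Rptor/Rictor, Tsc1/Tsc2 and Rragd/Rragc, on log scales that differ between panels, in 3 Control and 3 toyocamycin samples; lines are geometric means. Rptor/Rictor fell from about 0.691 to 0.206 (middle samples), Tsc1/Tsc2 rose to between 2.91 and 3.34, and the Rragd/Rragc samples overlap.

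In the amino acid branch all 3 genes examined were higher with the deposited scaling, where 32.8% of all genes tested were higher. The call of Flcn was lost with equal totals and with quantile normalization, as given below. Further genes around the RAG GTPases, also given below, moved in both directions. Rragc (chromosome 4, 123917446 to 123936997) encodes RAGC, a GTPase that pairs with RAGA or RAGB to recruit mTORC1. It was at 3046, 3110 and 3216 in Control and 5911, 6162 and 5791 with toyocamycin, a rise of 1.91-fold (log2 change 0.93, SE 0.052, adjusted p = 9.72e-13). An opposite-strand gene, not analysed here, overlaps 7.9% of the Rragc exonic bases. Its paralogue Rragd (chromosome 4, 32983037 to 33022180) was at 207, 212 and 246 in Control and 396, 434 and 347 with toyocamycin, a rise of 1.77-fold (log2 change 0.82, SE 0.13, adjusted p = 1.00e-05). Neither gene overlapped between groups. Rragd reads were 0.0681, 0.0683 and 0.0764 times Rragc reads in Control and 0.067, 0.0705 and 0.06 times with toyocamycin. The ratio shifted by −0.11 on the log2 scale, close to its spread (SD 0.09 and 0.12, exact permutation p = 0.4, two-sided, adjusted p = 0.4). Quantile normalization, which shifts genes by amounts that depend on their level, gave a log2 change of 1.24 for Rragd and 0.45 for Rragc. With it Rragd thus rose more.

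Flcn (chromosome 11, 59791408 to 59810016), whose product acts on RAGC and RAGD as a GTPase-activating protein, was at 2199, 2461 and 2498 in Control and 3066, 3050 and 3072 with toyocamycin. The treated samples lay close together above Control, and the mean rose 1.28-fold (log2 change 0.36, SE 0.06, adjusted p = 1.58e-05). The direction depended on scaling: equal totals gave a log2 change of 0.01 (adjusted p = 0.836), quantile normalization gave −0.04 (adjusted p = 0.528), and neither passed. Fnip1, which encodes a binding partner of folliculin, had a larger fold change. It was at 1918, 2224 and 2014 in Control and 14849, 16200 and 14025 with toyocamycin, so it rose 7.32-fold (adjusted p = 6.27e-19, log2 change 2.87, SE 0.062). Its paralogue Fnip2 rose 1.69-fold, from 8360 ± 259 to 14160 ± 565.

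Of 12 further genes around the RAG GTPases, Fnip1 and Fnip2 included, 4 were higher, 5 lower and 3 did not pass (median −0.02). Across all genes tested, 32.8% were higher and 33.1% lower. Equal totals gave 3 higher and 6 lower, where 24.9% of all genes were higher and 42.5% lower. Quantile normalization gave 6 higher and 3 lower, where it called 5359 of 16223 genes higher and 5163 lower. Rraga rose 1.67-fold, from 995 ± 43.9 to 1660 ± 65.9, while its paralogue Rragb fell 1.73-fold, from 233 ± 27.1 to 135 ± 24.6 (adjusted p = 3.76e-04, or 0.205 with quantile normalization). Of the genes for Ragulator, the scaffold that holds the RAGs on the lysosome, Lamtor1 fell 2.45-fold from 1349 ± 44.5 to 551 ± 22.3 and Lamtor2 2.31-fold from 329 ± 42.2 to 143 ± 29.8. Slc38a9, the lysosomal arginine sensor that binds Ragulator, fell 5.34-fold, from 472 ± 24.7 to 88.3 ± 8.18 (log2 change −2.41, adjusted p = 4.44e-12).

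Promoter sequences are shown for the genes of the RAG, RHEB and folliculin group, which moved in both directions, and for Rictor, which rose most among the 10. They come from RefSeq on GRCm38.p6, the assembly of mm10, and 9 of the 10 genes matched an entry. The E-box CACGTG, a palindrome bound by TFEB, TFE3, MYC and other factors, was searched in the 250 bases before each start and was present in 6.02% of 32851 promoters. It was found in 2 of the 9 matched genes, Rheb and Rragc. With the 12 partner genes added, 19 of 22 genes had a promoter entry and 7 held the box, of which 3 were higher, 3 lower and 1 did not pass. The windows below run 5′ to 3′ on the gene's strand with the box in capitals, at chr4:123917309-123917338 (+) for Rragc, chr5:24842440-24842469 (−) for Rheb, chr11:54438092-54438121 (+) for Fnip1, chrX:153139819-153139848 (+) for Rragb, chr7:101905757-101905786 (+) for Lamtor1, chr5:138255350-138255379 (+) for Lamtor4 and chr13:43171537-43171566 (−) for Tbc1d7. Rragb and Lamtor4 each hold a further box that is not shown, and the Rheb window lies in the first exon of a GENCODE transcript that starts upstream of the RefSeq start.
Rragc (higher): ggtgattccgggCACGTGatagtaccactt
Rheb (higher): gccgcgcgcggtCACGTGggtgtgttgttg
Fnip1 (higher): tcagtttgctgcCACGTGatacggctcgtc
Rragb (lower): gagagcccgggcCACGTGatggcgggtggc
Lamtor1 (lower): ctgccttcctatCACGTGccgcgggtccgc
Lamtor4 (lower): gcagaaagttaaCACGTGaacagcttttca
Tbc1d7 (not passed): ccggttaacatcCACGTGtgggtgggactc
The same 6 letters thus stood before genes that rose, fell and did not pass with the deposited scaling. The lower calls of Lamtor4 and Rragb depended on the processing. Lamtor4 (log2 change −0.54, adjusted p = 0.00691) did not pass with quantile normalization (adjusted p = 0.993). It also did not pass after the GC and length correction (−0.26, adjusted p = 0.174). Rragb did not pass with quantile normalization (−0.25, adjusted p = 0.205).

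The GC box GGGCGG, the core of SP1 sites, was searched on both strands in the same windows and was present in 32.7% of all promoters. It was found in 4 of the 9 matched genes, Mtor, Rheb, Rictor and Rragc, of which Mtor fell and the others rose. Rictor held 4 boxes in 250 bases of 81.2% GC, and Tsc2 held none in 250 bases of 62.8% GC. The stretch of the Rictor promoter with its boxes in capitals lies at chr15:6708213-6708340 (+).
Rictor: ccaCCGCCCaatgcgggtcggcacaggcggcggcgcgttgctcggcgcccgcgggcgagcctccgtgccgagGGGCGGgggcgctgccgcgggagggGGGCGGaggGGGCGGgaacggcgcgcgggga
A match describes the letters only and shows no binding.

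Levels of different genes were compared as normalised reads per kilobase of merged exons, with exon lengths from GENCODE M21. In Control, Rragc was highest at 935 ± 25.6 per kilobase, followed by Flcn at 552 ± 37.7. Mtor (217 ± 10.5) and Tsc2 (216 ± 2.51) overlapped and came next, above Rheb (161 ± 15.5), Rictor (132 ± 8.45), Rptor (115 ± 6.42) and Tsc1 (105 ± 11.8), of which Rptor and Tsc1 overlapped. Rragd (42.9 ± 4.02) and Deptor (1.93 ± 0.234) were lowest. With toyocamycin the order changed. Rragc stayed first at 1782 ± 56.7, and Rictor reached 730 ± 28.7, overlapping with Flcn at 709 ± 2.68. Rheb followed at 353 ± 7.48, then Rptor at 185 ± 3.53, Tsc1 at 162 ± 8.8 and Mtor at 141 ± 6.41. Tsc2 had dropped to 63.4 ± 4.58 and overlapped with Rragd at 75.9 ± 8.45, above Deptor at 1.77 ± 0.941.

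The balance between higher and lower genes in the whole table depended on scaling. With the samples set to equal totals, 24.9% of genes were higher and 42.5% lower, with a median log2 change of −0.36 over the table. The 10 genes then gave 6 higher and 2 lower, since Flcn no longer passed. The log2 change with equal totals was 2.11 for Rictor, 0.78 for Rheb, 0.58 for Rragc, 0.47 for Rragd, 0.34 for Rptor, 0.29 for Tsc1, −0.97 for Mtor and −2.12 for Tsc2, each with an adjusted p under 0.05. A correction for GC content and length, chosen after the data were seen, gave 1.99 for Rictor, −1.52 for Tsc2, −0.40 for Mtor and 0.77 for Flcn.

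**Figure D3:**
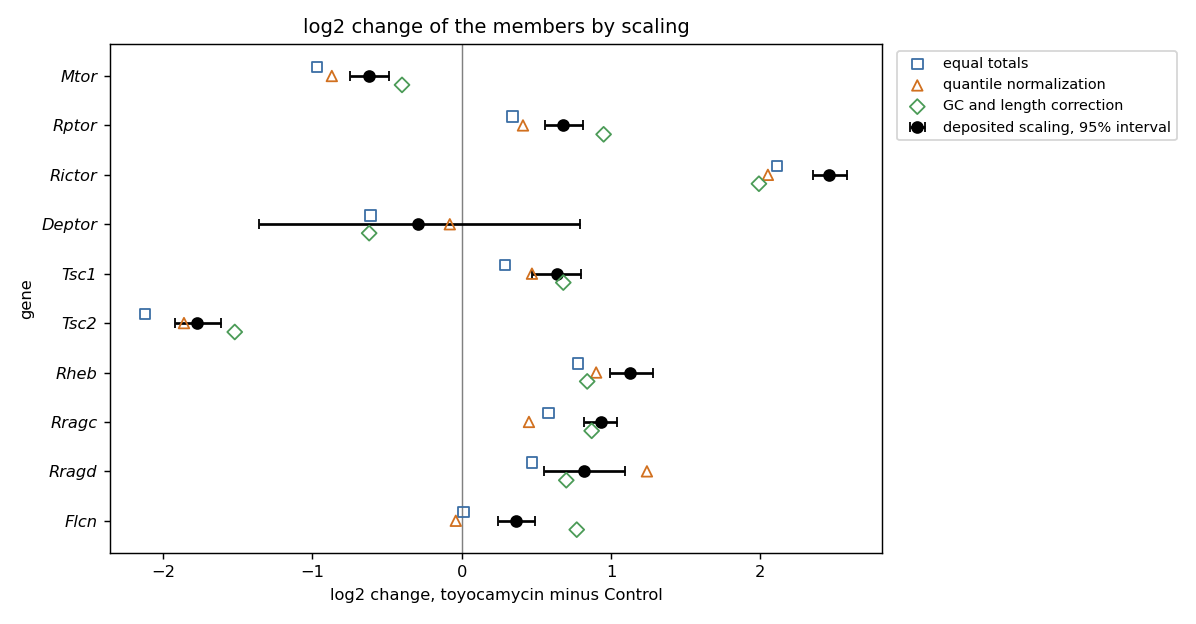
log2 change (toyocamycin minus Control) of the 10 genes with the deposited scaling (filled points with 95% intervals from limma) and with 3 other scalings (open symbols). Rictor lies between 1.99 and 2.46 and Tsc2 between −2.12 and −1.52 in all 4, while Flcn reaches −0.04 with quantile normalization.

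Further upstream, 15 genes of nutrient and stress sensing were mostly higher: 12 rose and 3 fell (median 0.84), where 32.8% of all genes were higher and 33.1% lower. The counts were the same at equal totals, where 24.9% of all genes were higher and 42.5% lower. Bmt2, which encodes the methionine-responsive inhibitor SAMTOR, rose 7.51-fold from 265 ± 19.7 to 1992 ± 31. Prkaa2, a catalytic subunit of the energy sensor AMPK, rose 5.58-fold from 15.4 ± 1.19 to 85.8 ± 18.5, and Ddit4l, an mTORC1 inhibitor, rose 4.78-fold from only 3.26 ± 0.543. Castor2, a paralogue of the arginine sensor gene Castor1, fell 5.76-fold, from 1381 ± 127 to 240 ± 13.2. Castor1 fell 1.72-fold, from 9069 ± 186 to 5287 ± 433, and Prkag2, which encodes an AMPK subunit, fell 1.31-fold. Chosen after their values were seen, the sestrin genes, whose products restrain mTORC1 under stress, all rose: Sesn1 2.85-fold, Sesn2 3.47-fold and Sesn3 1.58-fold. Ddit4 (REDD1), an inhibitor that acts through the TSC complex, rose 2.51-fold from 2020 ± 54 to 5063 ± 391.

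Of 12 genes for GATOR1, GATOR2 and KICSTOR, complexes that relay amino acid levels to the RAGs, 4 were higher, 5 lower and 3 did not pass (median 0.07). Shares over all genes tested were 32.8% higher and 33.1% lower. Equal totals gave 2 higher and 7 lower, where 24.9% of all genes were higher and 42.5% lower. Quantile normalization gave 5 and 3, where it called 5359 of 16223 genes higher and 5163 lower. The GC and length correction gave 6 and 3 of 11 genes tested, where it called 5069 of 15595 genes higher and 5188 lower. Kptn, a KICSTOR subunit, fell 6.04-fold from 398 ± 33.8 to 65.8 ± 26. The GATOR1 gene Depdc5 fell 2.32-fold from 1099 ± 85, and Seh1l, shared by GATOR2 and the nuclear pore, rose 3.35-fold from 1552 ± 80.2 to 5206 ± 320.

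Of 16 genes of the PI3K-AKT input, 8 were higher, 6 lower and 2 did not pass (median 0.39). Over the whole table, 32.8% of genes tested were higher and 33.1% lower. Equal totals gave 8 higher and 8 lower (median 0.04), where 24.9% of all genes were higher and 42.5% lower. Quantile normalization gave 9 and 7, where it called 5359 of 16223 genes higher and 5163 lower. The GC and length correction gave 11 and 5, where it called 5069 of 15595 genes higher and 5188 lower. The phosphatase gene Phlpp1, which acts against AKT, rose 4-fold from 206 ± 8.49 to 823 ± 25. Irs2, an adaptor of insulin and IL-4 receptors, rose 2.49-fold from 19940 ± 1196, and the catalytic subunit gene Pik3cg fell 2.47-fold from 4403 ± 7.9 to 1783 ± 67.9.

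Among 20 genes for substrates and outputs of mTOR, 12 were higher, 5 lower and 3 did not pass (median 0.70). All genes tested gave 32.8% higher and 33.1% lower (median −0.03). Equal totals gave 11 higher and 7 lower (median 0.35), where all genes gave 24.9% higher and 42.5% lower. Sgk1, a kinase activated by mTORC2, rose 9.73-fold from 93.5 ± 11 to 910 ± 62.8 (log2 change 3.27, adjusted p = 2.93e-15). Larp1, a repressor of ribosomal protein mRNA translation, rose 3.26-fold from 14420 ± 415, and Pdcd4, an inhibitor of translation initiation, 3.42-fold from 573 ± 62.2. Rps6kb2, which encodes an S6 kinase, fell 3.62-fold, from 908 ± 6.44 to 251 ± 50.9. These are transcript levels and carry no measure of mTOR kinase activity.

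TFEB and TFE3 are transcription factors that mTORC1, acting through RAGC, RAGD and folliculin, keeps out of the nucleus. Tfeb was at 465 ± 34.1 and 505 ± 58.7 and did not pass (log2 change 0.11, adjusted p = 0.363). It was called lower with equal totals (−0.23, adjusted p = 0.039), and higher with quantile normalization (0.39, adjusted p = 0.00224) and after the GC and length correction (0.36, adjusted p = 0.00704). Tfe3 fell 1.2-fold, from 1583 ± 116 to 1321 ± 84 (adjusted p = 0.00323, or 0.0676 after the GC and length correction). Their target list had 22 genes, with 13 higher, 5 lower and 4 that did not pass (median 0.74), against 13 higher and 8 lower with equal totals. For all genes tested the shares were 32.8% higher and 33.1% lower, and 24.9% and 42.5% with equal totals. Fnip1 and Fnip2 belong to this list too. The autophagy gene Map1lc3b rose 3.59-fold from 1723 ± 88.8 to 6183 ± 435 and the lysosomal membrane gene Lamp1 2.63-fold from 8075 ± 348, while the lysosomal calcium channel gene Mcoln1 fell 2.62-fold from 1172 ± 8.88 to 448 ± 31.7.

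**Figure D4:**
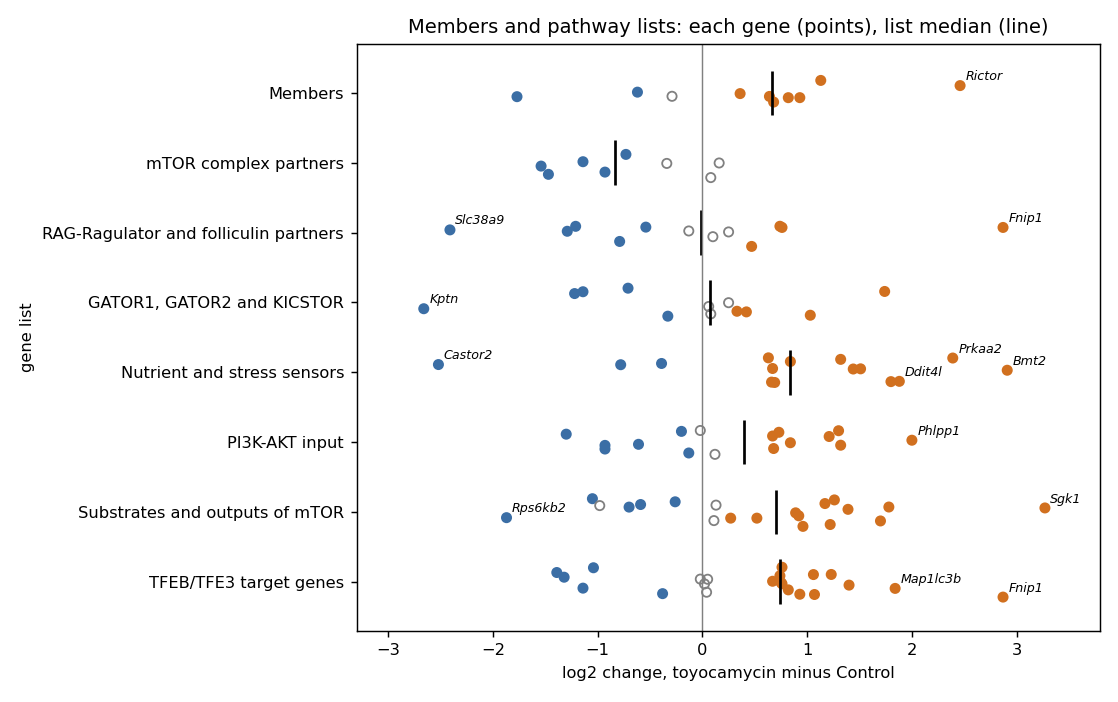
log2 change (toyocamycin minus Control) of each gene in the 10-gene set (top, "Members") and 7 pathway lists; filled points passed the test (orange higher, blue lower), open points did not, and lines are list medians. Medians run from −0.83 for the mTOR complex partners to 0.84 for the nutrient and stress sensors, and genes past 1.8 in size are named.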

How the data were processed

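RNA sequencing of 3 Control and 3 toyocamycin samples was analysed from 1 deposited table. Per the submitters' processing notes, the authors used FastQC, cutadapt 4.7 and mm10. The annotation, aligner, counter and strand setting are not given in the sources. Although the file name says FPKM, it holds a different normalised signal: in every deposited column 100% of values were whole multiples of 1 read (tolerance 0.01 reads), with the same step for all genes, so they were taken as reads divided by 1 size factor per sample (0.7572 to 1.1808). Depth was 22.3 M to 36.7 M reads. The floor of 3 reads per library corresponds to 2.66 normalised reads in Control and 3.38 with toyocamycin, and covers counting error only. For each pair of replicates the chi-square per degree of freedom of the reads was 3.96 to 7.76, above counting noise, and all samples were kept.

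Genes with a mean normalised count of at least 1 were tested on the log2(value + 1) scale, using limma 3.58.1 (R 4.3.3) with a mean-variance trend, two-sided, with Benjamini-Hochberg adjustment and a threshold of 0.05; the pseudocount makes log2 changes understate those of low genes. Folds are ratios of means, errors are SD (n = 3), and SE and intervals are limma's. The design assumed FPKM and kept limma; edgeR 4.0.16 and DESeq2 1.42.0 were run on the recovered reads as alternatives. Other alternatives were pseudocounts, filters, equal totals, quantile normalization, a replicate block and leaving out each sample. The limma step was tested on simulated data in which few genes changed. That test does not cover data where 65.9% of genes were called, or the choice of scaling.

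The genes and lists were chosen with earlier results of these data known. All 10 genes are described; each list gives its counts, up to 4 called genes of largest change above the floor, and direct partners of the 10; some genes that this rule names are not reported here. Positions, exon lengths and overlaps come from GENCODE M21. No transcript annotated to another gene matched one of the 10 at 95% identity over 150 bases. Opposite-strand overlaps were 7.2% of merged exon bases for Tsc2, 7.9% for Rragc, 3.4% for Deptor and 0.6% for Rptor. GC content and length were known for 96.1% of genes tested.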

Additional observations from a re-analysis of the deposited data

How the results depend on the processing

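Mtor, Rptor, Rictor, Tsc1, Tsc2, Rheb, Rragc and Rragd kept their direction and their call in all 17 alternatives. With 1 sample left out, the log2 change ran from 2.42 to 2.51 for Rictor, from −1.82 to −1.71 for Tsc2 and from 0.54 to 0.69 for Tsc1. Flcn lost its call with equal totals (0.01) and turned with quantile normalization (−0.04). Deptor ran from −0.58 to 0.25 with 1 sample left out and turned without toyocamycin replicate 3. Akt1s1 (−0.19), Tbc1d7 (−0.10) and Tfeb (−0.23) turned with equal totals, while with quantile normalization all 3 were called higher (0.28, 0.73 and 0.39); the cause was not tested. Equal totals left 1777 genes at least 2-fold higher in place of 2759. The edgeR test called 7 of the 10 genes higher and 2 lower, as limma did. A replicate block gave 5272 higher and 5298 lower genes in place of 5316 and 5374, and changed no call among the 10. Same-numbered samples did not deviate together (correlations −0.008, 0.023 and −0.041), so the numbers were not taken to pair the samples. Leaving out 1 sample, the shift in the log2 ratio ran from −1.81 to −1.73 for Rptor/Rictor, from 2.31 to 2.46 for Tsc1/Tsc2 and from −0.16 to −0.05 for Rragd/Rragc.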
